A study of Mus musculus with 2 samples.

Results

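The genes described here encode the mitochondrial respiratory chain and ATP synthase. Their transcript levels were set side by side in 2 RNA-seq libraries made from mouse embryonic stem cells of the line E14.1. Members were chosen by symbol: those that begin with Nduf, Sdha to Sdhd, Uqcr, Cox4 to Cox8 or Atp5 in the nucleus, and with mt-Nd, mt-Co, mt-Cyt or mt-Atp in the mitochondrial genome. Of 118 matching symbols, 9 were left out as pseudogenes, by symbol or by annotated type. Of these 9, Ndufb1-ps was left out by its symbol alone and is annotated as a long non-coding RNA. Another 4 genes stayed under 1 RPKM (reads per kilobase of exon, scaled to library size) in both libraries. The remaining 105 members, 93 nuclear and 12 mitochondrial, are part of 25749 genes listed, of which 12320 reached 1 RPKM in at least 1 library. The 4 genes under the minimum were Cox6a2, Ndufb2, Sdhaf1 and mt-Atp8, the last listed at 0 in both.

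One library came from cells with wild-type AHCY (WT) and the other from cells with T136A AHCY, in which alanine replaces a threonine of this enzyme. AHCY breaks down S-adenosylhomocysteine, which methyl transfer leaves behind. How the T136A cells were made and how many clones were used is not given in the sources used here. With 1 library per genotype no spread between replicates could be measured, so "higher" and "lower" refer to these libraries, and no difference has a p-value. The totals implied by the values were 17506154 reads for WT and 18396840 for T136A. Of the 8 embryonic stem cell markers examined, all were at 98.0 RPKM or more in both libraries. Of 8 fibroblast feeder markers found, 3 reached 1 RPKM (Vim, Thy1 and S100a6), the summed level of the list was 27.6 RPKM in WT and 54.2 in T136A, and Lox was at 0 in both. Whether feeder cells had a part in any difference given here was not tested.

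The respiratory chain passes electrons from NADH (complex I) and succinate (complex II) through ubiquinone, complex III and cytochrome c to oxygen at complex IV, and ATP synthase (complex V) uses the proton gradient that results. Complexes I, III, IV and V join subunits read from the mitochondrial genome with subunits encoded in the nucleus and imported, whereas complex II is wholly nuclear. The mitochondrial genes are transcribed as long precursors from both strands and cut at the tRNAs between them, so neighbouring messages share a precursor. Embryonic stem cells draw much of their energy from glycolysis but keep an assembled chain.

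Transcripts of the mitochondrial genome were mostly higher in the T136A library, while nuclear members lay on both sides of 0. Levels were compared as a log2 ratio, T136A over WT, after adding 1 RPKM to each, and on this scale differences of weakly expressed genes are understated. Fold differences with counting intervals use the values with nothing added. By the log2 ratio, 11 of the 12 mitochondrial members were above 0, against 42 of the 93 nuclear members and 47.4% of all genes tested. The median log2 ratio was 0.25 for mitochondrial members, -0.06 for nuclear members and -0.03 for all genes. Over the nuclear members with whole reads recovered in both libraries the median was 0.02. The mitochondrial members also share precursors, so their 12 values are not independent of each other.

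Few members were far apart. At least 2-fold higher in T136A were 3 members, against a background of 3.13% of all genes, and 1 was at least 2-fold lower, against 3.10%. Of the 3 higher ones, Cox7b2 and Cox8c reached 1 RPKM only in T136A, and without them 1 was left. With a limit of 1.5-fold, 11 members (10.5%) were higher and 4 (3.81%) lower, beside 10.4% and 11.3% of all genes. The share of higher members was therefore near the background, and the share of lower members below it. The background was not matched for level: the median in WT was 76.4 RPKM for members and 6.80 for all genes. Over the 93 nuclear members the levels of the libraries had a Spearman correlation of 0.970, a description across genes that share both libraries.

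**Figure D1:**
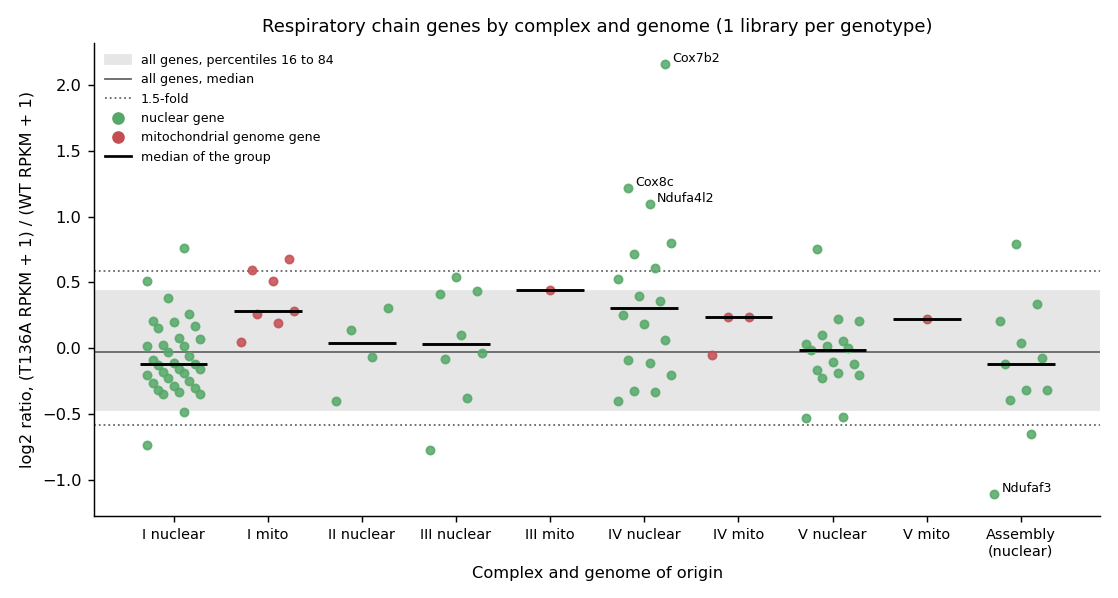
Each point is 1 member, plotted by complex and genome of origin, with its log2 ratio of T136A to WT (1 RPKM added) on the vertical axis; black bars are group medians, the grey band and line are percentiles 16 to 84 (-0.47 to 0.44) and the median of all 12320 genes, and dotted lines mark 1.5-fold. All mitochondrial members but mt-Co1 lie above 0, and the points beyond 2-fold are Cox7b2, Cox8c, Ndufa4l2 and, below, Ndufaf3.

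Summed over members, mitochondrial RPKM exceeded nuclear RPKM in both libraries, and by more in T136A. The 12 mitochondrial members summed to 25513 RPKM in WT and 29878 in T136A. For the 93 nuclear members the sums were 10652 and 9992 RPKM. The ratio of these sums was 2.40 in WT and 2.99 in T136A. As a share of all RPKM the mitochondrial members held 6.72% in WT and 7.78% in T136A. As a share of the implied reads they held 3.40% (95% Wilson interval 3.39 to 3.40) and 3.85% (3.84 to 3.86), intervals that cover counting error only. In whole-cell RNA, more mitochondrial RNA per cell and more cells rich in it cannot be told apart.

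The 7 mitochondrial genes of complex I, which encode its proton-pumping membrane arm, were all above 0. The highest log2 ratios among the abundant ones were those of mt-Nd2, at 2065 RPKM in WT and 3302 in T136A (1.6-fold higher, 95% counting interval 1.58 to 1.62), and mt-Nd1, at 3517 and 5001 RPKM (1.42-fold, 1.41 to 1.44). Both lie early in the heavy-strand transcript, just after the ribosomal RNAs. Further along, mt-Nd5 stood at 1376 RPKM in WT and 1648 in T136A (1.20-fold), and mt-Nd4 at 1469 and 1675 RPKM (1.14-fold). The ratios did not fall in map order. The log2 ratio of mt-Co1, which follows mt-Nd2, was -0.05, and that of mt-Cytb, which follows mt-Nd5, was 0.44. The single message of the light strand, mt-Nd6, was at 603 and 734 RPKM, 1.22-fold higher (1.17 to 1.26). The 2 lowest members, mt-Nd3 (8.04 and 12.7 RPKM) and mt-Nd4l (4.04 and 4.21 RPKM), rested on few reads, 49 and 81 for mt-Nd3 and 21 and 23 for mt-Nd4l. For mt-Nd3 the fold was 1.57 with a wide counting interval (1.09 to 2.29), and for mt-Nd4l that interval included 1 (0.551 to 1.98).

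In complex III, mt-Cytb, the cytochrome b that carries both quinone sites, was 1.36-fold higher (1.35 to 1.37), at 3926 RPKM in WT and 5333 in T136A. Complex IV differed within itself. Its catalytic subunit mt-Co1 was the highest gene in both files, at 12213 RPKM in WT and 11781 in T136A. It was the only mitochondrial member below 0, with a log2 ratio of -0.05. It made up 47.9% of the summed mitochondrial RPKM in WT and 39.4% in T136A. Its companions mt-Co2, which receives electrons from cytochrome c, and mt-Co3 were at 155 and 182 RPKM and at 104 and 123 RPKM, both 1.18-fold higher. The proton channel subunit of ATP synthase, mt-Atp6, was at 71.3 RPKM in WT and 83.1 in T136A, 1.17-fold higher (1.06 to 1.28).

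Only 3 mitochondrial rRNA and tRNA genes were found among the genes listed. All 3 reached 1 RPKM and had higher log2 ratios than any of the 12 mitochondrial members. The ribosomal RNAs were at 175 RPKM in WT and 299 in T136A (mt-Rnr1) and at 193 and 332 RPKM (mt-Rnr2), with log2 ratios of 0.77 and 0.78. The proline tRNA mt-Tp, on the light strand, stood at 268 and 464 RPKM, with a log2 ratio of 0.79. Ribosomal RNA carries only short tails, so its level in such libraries also depends on how RNA was selected. Whether RNA selection had a part in the mitochondrial differences was not tested.

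**Figure D2:**
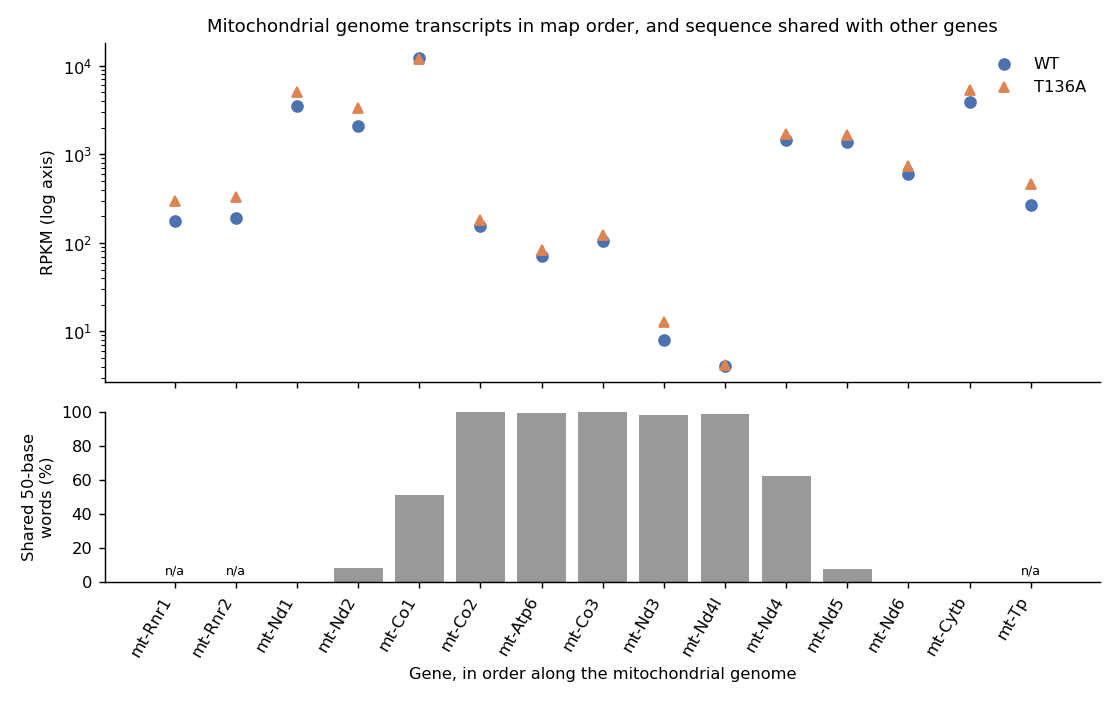
The upper panel gives RPKM on a log axis in the WT (circles) and T136A (triangles) libraries for mitochondrial transcripts in map order, leaving out mt-Atp8, which is at 0; the lower panel gives the percent of each protein-coding gene's 50-base words found in transcripts of another gene (n/a: not computed). The 5 genes with 98.0% or more shared sequence have the 5 lowest levels among the mitochondrial members, and the T136A point is above the WT point everywhere but at mt-Co1.

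The order of the 12 mitochondrial levels was the same in both libraries, and the lowest of them belonged to genes that share nearly all their sequence with the nuclear genome. The nuclear genome of the mouse holds a long copy of part of the mitochondrial genome on chromosome 1, annotated as a row of pseudogenes. For each member, the share of its transcripts' 50-base words found in transcripts of any other gene (GENCODE M21) was counted. The share was 98.0% to 100% for mt-Co2, mt-Co3, mt-Atp6, mt-Nd3 and mt-Nd4l, 62.2% for mt-Nd4 and 51.1% for mt-Co1. It was 8.19% for mt-Nd2, 7.61% for mt-Nd5 and 0 for mt-Nd1, mt-Nd6 and mt-Cytb. The share was also 0 for mt-Atp8, which was at 0 RPKM in both libraries. This gene follows mt-Co2 on the map and overlaps mt-Atp6. Only annotated transcripts were searched, so its share of 0 does not show that chromosome 1 lacks its sequence. In WT the 5 genes with the highest shares stood between 4.04 and 155 RPKM and the other 7 between 603 and 12213 RPKM. How reads that match several places were treated is not given in the sources used here, so levels of these genes relative to each other are uncertain.

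The sequences below show parts of that shared stretch, in the sense direction of the mitochondrial gene. Capitals mark the longest run identical to the annotated pseudogene on chromosome 1, and small letters lie outside that run. In mt-Co1 (chrM:5328-6872, GRCm38, plus strand) the run starts at base 1067 of 1545, here in the window chrM:6334-6453. That base matches base 14 of the pseudogene Gm29216. In mt-Nd4 the run ends at base 876 of 1378, here in the window chrM:10983-11102. The annotated pseudogene, Gm28439, ends there too, at 876 bases. Sequence of chromosome 1 beyond the annotated pseudogenes was not compared, so these ends need not be the edges of the copy. The first 100 bases of mt-Co2 (chrM:7013-7112) and of its copy, the pseudogene Gm28661 (chr1:24615466-24615565, minus strand), are the same, as are 681 of 684 bases in 1 run.
mt-Co1: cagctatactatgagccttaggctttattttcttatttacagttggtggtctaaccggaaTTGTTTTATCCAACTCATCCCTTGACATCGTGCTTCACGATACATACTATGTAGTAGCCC
mt-Co2: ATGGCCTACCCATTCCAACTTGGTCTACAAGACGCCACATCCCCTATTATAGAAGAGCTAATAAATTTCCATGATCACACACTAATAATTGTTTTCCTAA
Gm28661: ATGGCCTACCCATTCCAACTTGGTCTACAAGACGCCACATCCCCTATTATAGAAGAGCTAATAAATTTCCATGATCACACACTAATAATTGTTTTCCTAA
mt-Nd4: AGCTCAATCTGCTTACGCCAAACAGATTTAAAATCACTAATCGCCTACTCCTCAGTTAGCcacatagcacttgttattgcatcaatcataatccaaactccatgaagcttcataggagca

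The pseudogenes of that copy were themselves listed with reads. Gm28661, the copy of mt-Co2, stood at 75.5 RPKM in WT and 85.2 in T136A, and Gm10925, the copy of mt-Atp6, at 143 and 157 RPKM. Gm28437, which matches mt-Co3, was at 90.5 and 72.8 RPKM, and Gm28438, which matches mt-Nd3, at 28.6 and 45.5 RPKM. The copy of mt-Co1, Gm29216, was at 50.9 and 45.5 RPKM, and like mt-Co1 it was lower in T136A. Without the 5 mitochondrial genes that share 90% or more, the other 7 had a median log2 ratio of 0.28. The 5 genes that share under 10% had a median of 0.44, and all 5 were above 0. What part the copies had in the levels of the shared genes was not tested.

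Nuclear subunits of complex I, which oxidises NADH, leaned slightly lower in T136A. Above 0 were 13 of 35 (37.1%), beside 47.4% of all genes, and 22 were below 0. The median log2 ratio was -0.12, beside -0.03 for all genes, and it was -0.07 under median scaling. Only Ndufb11 passed 1.5-fold on the lower side and Ndufa8 on the higher. Ndufb11, an X-linked subunit of the membrane arm, was at 205 RPKM in WT and 122 in T136A, 1.67-fold lower (1.58 to 1.77). Ndufa8, a small subunit with paired cysteines, was at 50.7 and 86.6 RPKM, 1.71-fold higher (1.56 to 1.87). Also lower was Ndufb4, another membrane arm subunit, at 91.1 and 71.3 RPKM. On the higher side followed Ndufb10, at 48.7 RPKM in WT and 69.7 in T136A (1.43-fold, 1.32 to 1.55), and Ndufb3, at 112 and 147 RPKM.

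The peripheral arm holds the redox centres. In the N module, which binds NADH, 2 of 10 genes were above 0 (20%, beside 47.4% of all genes) and 8 below. Their median log2 ratio was -0.21. The flavin-bearing Ndufv1 was at 75.05 RPKM in WT and 63.8 in T136A, and its partner Ndufv2 at 118 and 96.0 RPKM. The iron-sulfur subunit Ndufs1 went the other way, at 20.9 and 24.1 RPKM, 1.15-fold higher (1.10 to 1.21). In the Q module, which reduces ubiquinone, the median over 5 genes was -0.18. Of its core subunits, Ndufs3 (45.2 and 39.7 RPKM), Ndufs7 (52.1 and 53.0 RPKM) and Ndufs8 (109 and 85.5 RPKM) had log2 ratios of -0.18, 0.03 and -0.35. The other 20 nuclear subunits had a median of -0.08. All 15 genes of these 2 modules were within 1.5-fold.

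Complex II, succinate dehydrogenase, links the chain to the citric acid cycle and has no mitochondrial gene. Its 4 subunits lay on both sides of 0, with a median log2 ratio of 0.04. The flavoprotein Sdha stood at 86.5 RPKM in WT and 82.7 in T136A. The iron-sulfur subunit Sdhb was at 101 and 75.6 RPKM, 1.33-fold lower (1.27 to 1.39). The membrane anchors were on the other side of 0. Sdhc was at 55.8 and 69.0 RPKM, 1.24-fold higher (1.18 to 1.30), and Sdhd at 127 and 140 RPKM, 1.10-fold higher (1.05 to 1.16).

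In complex III, 4 nuclear genes were above 0 (50%, beside 47.4% of all genes) and 4 below, with a median of 0.03. The symbol rule leaves out Cyc1, the cytochrome c1 of this complex. It was at 292 RPKM in WT and 303 in T136A and is counted below with the electron carriers. Uqcrq, a small subunit next to cytochrome b, was at 195 RPKM in WT and 113 in T136A, 1.72-fold lower (1.65 to 1.79), the only member of this complex past 1.5-fold. Uqcr10 was at 397 and 304 RPKM, 1.30-fold lower (1.25 to 1.37). Higher in T136A were the hinge protein Uqcrh, at 80.8 and 118 RPKM (1.46-fold, 1.37 to 1.55), the Rieske iron-sulfur protein Uqcrfs1, at 109 and 148 RPKM (1.36-fold, 1.29 to 1.43), and Uqcr11, at 109 and 145 RPKM. The large core proteins Uqcrc1 (153 and 149 RPKM) and Uqcrc2 (93.7 and 88.4 RPKM) were within 1.1-fold.

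In complex IV, cytochrome c oxidase, 12 of 18 nuclear genes were above 0 (66.7%, beside 47.4% of all genes). Of these 12, 6 were tissue-restricted forms and 6 not. The median log2 ratio was 0.30, and 6 genes (33.3%) were at least 1.5-fold higher and 0 lower, beside 10.4% and 11.3% of all genes. Of those 6, 5 are paralogues known from particular tissues or conditions: Cox7b2, Cox8c and Cox6b2 from testis, Ndufa4l2 and Cox4i2 from hypoxia. The 12 other nuclear genes of the complex had a median of -0.02, with 6 above 0 and 6 below. Cox7b2 and Cox8c were under 1 RPKM in WT and became members only through T136A, so their direction was fixed by the minimum. Without them, 4 of 16 nuclear genes of the complex (25.0%) were at least 1.5-fold higher and 0 lower, with a median of 0.22.

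Cox7b2 had the largest ratio of all members, at 0.527 RPKM in WT (5 reads) and 5.82 in T136A (58 reads), 11-fold higher (4.47 to 35.3). Its ubiquitous partner Cox7b was at 124 and 140.7 RPKM, so Cox7b2 made up 0.425% of the pair in WT and 3.97% in T136A. Cox8c stood at 0.499 and 2.49 RPKM, 4 and 21 reads, 5.0-fold higher (1.69 to 20.0), beside Cox8a at 699 and 529 RPKM. Cox6b2 was at 10.8 and 19.6 RPKM, 1.81-fold higher (1.53 to 2.15), and Cox6b1, which sits at the cytochrome c side, at 174 and 223 RPKM.

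Ndufa4l2, a paralogue of the complex IV subunit Ndufa4, stood at 7.04 RPKM in WT and 16.2 in T136A, 2.30-fold higher (1.87 to 2.83), while Ndufa4 was at 144 and 172 RPKM. Cox4i2 was at 5.07 and 8.97 RPKM, 1.77-fold higher (1.31 to 2.40), beside Cox4i1 at 178 and 154 RPKM. Of the forms known from heart and muscle, Cox7a1 was at 8.01 and 10.9 RPKM and Cox6a2 at 0.504 and 0.160 RPKM, 6 and 2 reads, with a ratio whose counting interval ran from 0.0313 to 1.77. In every one of these 7 pairs the ubiquitous form remained the higher in both libraries.

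**Figure D3:**
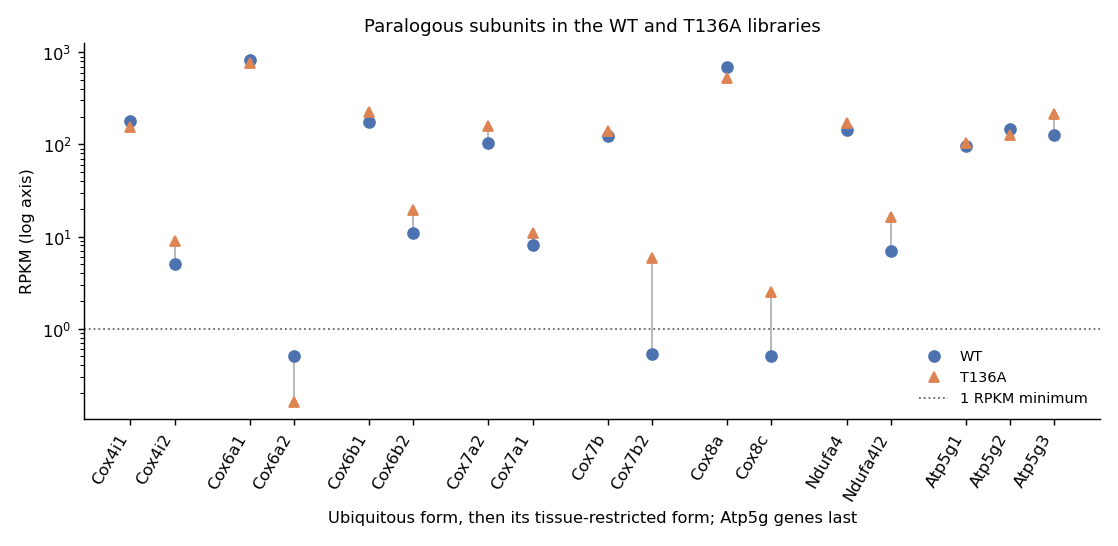
RPKM on a log axis in the WT (circles) and T136A (triangles) libraries for 7 pairs of complex IV paralogues, the ubiquitous form first, and for the 3 genes of the c subunit of ATP synthase. The restricted forms lie below 20 RPKM, and all but Cox6a2 are higher in T136A; among the c subunit genes Atp5g3 is at 127 RPKM in WT and 215 in T136A.

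Among the ubiquitous subunits of complex IV, Cox7a2 was the single gene past 1.5-fold, at 104 RPKM in WT and 159 in T136A (1.53-fold, 1.44 to 1.62). Cox5a was at 45.6 and 66.0 RPKM, 1.45-fold higher (1.36 to 1.54), whereas its companion Cox5b, which binds zinc, was at 230 and 182 RPKM. The most abundant nuclear message of the complex, Cox6a1, was at 830 and 768 RPKM. The lowest ratios were those of Cox8a (-0.40 on the log2 scale), Cox5b (-0.33) and Cox7a2l (-0.33), a factor that joins complexes III and IV in supercomplexes, at 123 and 97.6 RPKM.

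In complex V, 16 of 17 nuclear genes were within 1.5-fold, with a median log2 ratio of -0.01, which was up to 0.04 under other scalings. The catalytic core subunits, alpha (Atp5a1) and beta (Atp5b), were at 690 and 616 RPKM and at 918 and 784 RPKM, 1.12-fold lower (1.10 to 1.14) and 1.17-fold lower (1.16 to 1.18). The central stalk subunit gamma, Atp5c1, was at 252 and 255 RPKM, while delta, Atp5d, was at 142 and 164 RPKM (log2 ratio 0.21) and epsilon, Atp5e, at 58.1 and 40.0 RPKM, 1.45-fold lower (1.35 to 1.56). Atp5k, which helps join ATP synthases into dimers, was at 39.0 and 26.7 RPKM, 1.46-fold lower (1.26 to 1.70). Atp5l stood at 1.85 and 2.32 RPKM, the lowest nuclear level of the complex, and 1.25-fold higher (1.04 to 1.51).

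The 3 genes Atp5g1, Atp5g2 and Atp5g3 encode precursors of the same mature c subunit, which forms the rotor ring. Atp5g3 was at 127 RPKM in WT and 215 in T136A, 1.69-fold higher (1.64 to 1.76), the only gene of complex V past 1.5-fold. Atp5g1 was at 97.3 and 104.6 RPKM, and Atp5g2 at 146 and 128 RPKM. Atp5g3 therefore made up 34.3% of the summed RPKM of the 3 genes in WT and 48.0% in T136A, and the sum was 370 and 447 RPKM. Atp5g2 shares 38.3% of its 50-base words with transcripts of other genes, mainly pseudogenes, and Atp5g3 none.

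**Figure D4:**
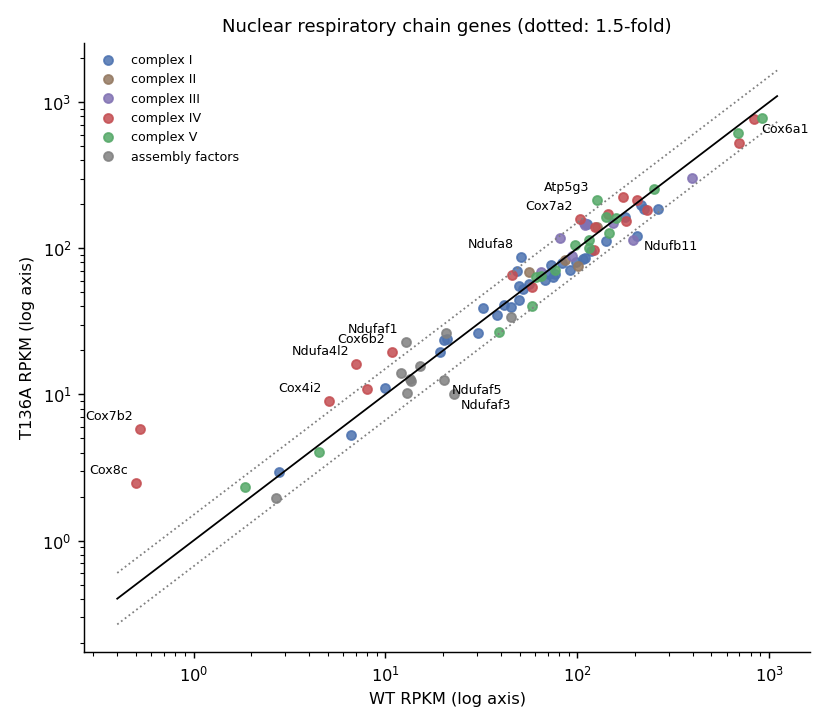
RPKM in the WT library against RPKM in the T136A library for the 93 nuclear members, on log axes, coloured by complex, with the line of equality and dotted lines at 1.5-fold. Most points lie between the dotted lines; those outside include Cox7b2, Cox8c and Ndufa4l2 above and Ndufaf3, Ndufaf5 and Ndufb11 below.

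The symbol rule also took in 11 assembly factors, proteins that build complexes I and II without being part of them. Their median log2 ratio was -0.12, with 1 gene (9.09%) at least 1.5-fold higher and 2 (18.2%) lower, beside 10.4% and 11.3% of all genes. Ndufaf3, which acts early in joining the Q module to the membrane, was at 22.8 RPKM in WT and 10 in T136A, 2.27-fold lower (1.995 to 2.60). Its binding partner Ndufaf4 was at 13.0 and 10.2 RPKM, 1.27-fold lower (1.15 to 1.41). Ndufaf8, a partner of Ndufaf5, was at 44.9 and 34.0 RPKM. Ndufaf5, which hydroxylates Ndufs7, was at 20.3 and 12.6 RPKM, 1.61-fold lower (1.42 to 1.83). Ndufaf7, a methyltransferase, was at 12.1 and 14.04 RPKM, a log2 ratio of 0.20. In the other direction, Ndufaf1, which helps build the membrane arm, was at 12.7 and 22.8 RPKM, 1.79-fold higher (1.56 to 2.05), followed by Ndufaf6 at 20.7 and 26.5 RPKM. The complex II factors Sdhaf2, Sdhaf3 and Sdhaf4 had log2 ratios of -0.08, -0.32 and 0.04.

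Other genes that serve the chain were read from lists outside the symbol rule. Among 37 further assembly factors at or above 1 RPKM, 12 were above 0 (32.4%, beside 47.4% of all genes) and 25 below. Their median was -0.28. At least 1.5-fold lower were 4 (10.8%) and higher 3 (8.11%), near the 11.3% and 10.4% of all genes. The lowest were Cox20, which guides mt-Co2 into complex IV (3.88 RPKM in WT and 0.246 in T136A), Tmem186 (18.9 and 9.74 RPKM) and the complex I factor Tmem126b (7.33 and 4.01 RPKM). The highest were Cmc2 (9.09 and 15.96 RPKM), the complex III factor Bcs1l (14.5 and 23.4 RPKM) and the copper carrier Cox11 (8.79 and 13.8 RPKM). Among 17 genes of the electron carriers and ubiquinone synthesis, 0 were at least 1.5-fold higher and 2 lower (11.8%, beside 11.3% of all genes), Coq10a (4.08 and 2.32 RPKM) and Coq9 (25.7 and 16.5 RPKM), and cytochrome c, Cycs, was at 58.6 and 68.9 RPKM.

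Of 32 genes that copy, transcribe and process mitochondrial nucleic acids, 4 (12.5%) were at least 1.5-fold higher, near the 10.4% of all genes, and 1 (3.12%) lower, beside 11.3%. Above 0 were 21 of the 32 (65.6%, beside 47.4% of all genes), and the median was 0.10. The protease Lonp1 (44.6 RPKM in WT and 82.8 in T136A), the single-strand DNA-binding protein Ssbp1 (5.46 and 10.2 RPKM) and the RNA-processing factor Fastkd5 (1.74 and 3.52 RPKM) were highest. The lowest was Mgme1, a nuclease of mitochondrial DNA replication, at 25.0 and 10.4 RPKM. The mitochondrial RNA polymerase Polrmt was at 15.2 and 16.4 RPKM, and the DNA-packaging transcription factor Tfam at 24.3 and 25.4 RPKM. Among 13 nuclear regulators of respiratory genes the median was -0.31, with 6 above 0 (46.2%, beside 47.4% of all genes). At least 1.5-fold higher were 2 (15.4%) and lower 1 (7.69%), beside 10.4% and 11.3% of all genes. The highest were Myc (2.27 and 17.7 RPKM), the coactivator Pprc1 (12.9 and 20.1 RPKM) and the nuclear receptor Esrra (6.997 and 10.5 RPKM). The mitochondrial deacetylase Sirt3 was lowest, at 7.59 and 3.46 RPKM, and Nrf1 was at 9.11 and 7.13 RPKM.

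In the citric acid cycle, which feeds complexes I and II, 4 of 19 genes (21.1%) were at least 1.5-fold higher and 0 lower, beside 10.4% and 11.3% of all genes, with a median of 0.05. They were Sucla2 (20.6 RPKM in WT and 38.8 in T136A), Mdh2 (66.2 and 120.5 RPKM), Suclg1 (26.5 and 45.2 RPKM) and Idh3a (24.5 and 37.4 RPKM). Sucla2 lies on chromosome 14, whose 453 genes had a median log2 ratio of 0.32; no respiratory chain member lies there. The lowest genes of the cycle list were Pcx (17.3 and 11.6 RPKM) and Pdhb (98.5 and 69.1 RPKM), the latter also on chromosome 14.

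Promoters of nuclear members were searched for the motifs of factors known to drive respiratory genes, in RefSeq windows of 300 bases (GRCm38.p6), from 250 before to 50 after the start, which were found for 75 of the 93. The NRF1 motif (GCGCA followed directly by TGCGC), the ETS motif CCGGAAG bound by GABPA, and the YY1 motif AAGATGGC were looked for on both strands, and none of these contains another. NRF1 letters were in 7 of the 75 windows (9.33%) and in 0.977% of all 27025 promoters. ETS letters were in 19 (25.3%), against 9.12%, and YY1 letters in 9 (12.0%), against 2.88%. The member windows also held more CpG pairs, with a median of 20 against 7 over all promoters, and how far base composition sets these shares was not tested.

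Promoter sequences are shown for an abundant and a restricted subunit. The promoter of Cox6a1 (chr5:115348909-115349208, minus strand), the most abundant nuclear message of complex IV, holds an NRF1 motif and, near the start, an ETS motif, both in capitals. That of Cox7b2 (chr5:71548156-71548455, minus strand), the member with the largest ratio, holds none of the 3 and has 10 CpG pairs, beside 32 for Cox6a1. The window of Cox7b, the ubiquitous partner of Cox7b2, also holds none of the 3 and has 5 CpG pairs. The windows shown are therefore examples, not a difference between abundant and restricted subunits.
Cox6a1: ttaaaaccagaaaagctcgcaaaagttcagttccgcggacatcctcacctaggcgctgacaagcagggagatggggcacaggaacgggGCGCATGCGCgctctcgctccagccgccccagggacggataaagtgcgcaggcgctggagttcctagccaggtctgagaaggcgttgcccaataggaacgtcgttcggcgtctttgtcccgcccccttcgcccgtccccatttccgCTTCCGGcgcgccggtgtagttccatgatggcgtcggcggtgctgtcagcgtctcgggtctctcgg
Cox7b2: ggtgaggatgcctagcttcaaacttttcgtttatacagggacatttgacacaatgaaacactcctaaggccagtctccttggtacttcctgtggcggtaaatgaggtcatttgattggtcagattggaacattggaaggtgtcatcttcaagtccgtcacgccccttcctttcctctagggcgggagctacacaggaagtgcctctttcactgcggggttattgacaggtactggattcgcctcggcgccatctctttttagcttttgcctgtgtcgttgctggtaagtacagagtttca

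Several nuclear members have sequence in common with pseudogenes or with other genes, and their levels carry the same uncertainty. Of the 93, 20 shared 10% or more of their 50-base words with transcripts of other genes, and these had a median log2 ratio of -0.12, against 0.00 for the other 73. The gene sharing most was not always a pseudogene: for Ndufa13 (28.5% shared) it was the protein-coding gene Tssk6. Under the 10% limit, the acyl carrier protein gene Ndufab1 shared 9.27%. It stood at 2.78 RPKM in WT and 2.96 in T136A, and its pseudogene Ndufab1-ps at 29.8 and 30.2 RPKM. Ndufb2, a membrane arm subunit that shared 5.52%, was listed at 0.142 and 0.193 RPKM and so was no member.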

How the data were processed

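RNA of 1 WT and 1 T136A sample was sequenced, and the authors deposited 1 table per library with 1 value per Ensembl gene. No label or header names the unit. The deposited values behave as RPKM: multiplied by the gene's exon length and 1 constant per library, 89.9% (WT) and 90.0% (T136A) came within 0.01 of a whole number, which gave the totals and read counts used. Per the submitters' processing notes, CASAVA 1.8 and the build mm9 were named, with no role. The aligner and counting rule were not given in the sources used here, nor was the treatment of reads that match several places.

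Of 25749 gene identifiers, 25696 were paired with a symbol through GENCODE M21 (GRCm38), which also gave transcripts for the shared-sequence counts. Genes at 1 RPKM or more in either library were kept, and 1 RPKM was added before taking log2. Counting intervals for folds are exact conditional binomial 95% intervals on recovered reads, available for 88 of the 105 members. They cover counting error only. With 1 library per genotype no test was possible. The calculation of log2 ratios was run on simulated data with 200 genes changed. That run concerns the calculation only, not the differences between these libraries. Python 3.11.15, numpy 2.4.6, pandas 2.3.3, scipy 1.17.1 and matplotlib 3.10.9 were used.

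Members and gene lists were chosen with earlier results of these data known. Named by rule were all mitochondrial members, core subunits, isoform pairs, members past 1.5-fold, and up to 3 genes at each end of each complex and list. The values of 1 gene that this rule names are not reported here. Tfam, Polrmt, Nrf1, Cycs, Cyc1, Ndufaf4, the complex II factors, Ndufab1 and the chromosome 1 copies were added after their values were seen, as was the split by shared sequence. Alternatives covered the pseudocount, the minimum, scaling and the choice of members.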

Additional observations from a re-analysis of the deposited data

How the results depend on the processing

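No paired analysis was possible because each genotype had 1 library, and no replicate could be left out. For 20 results under 13 settings and 5 more, 359 values were computed. Of these, 332 stayed within 1.5 times a count, the order-statistic range around a median or the counting interval of a share, and 27 moved beyond. Such ranges over genes are a tolerance, not a test. Medians near 0 had another sign in 7 values: complex V between 0.02 and 0.04 under median, upper quartile and trimmed-mean scaling, nuclear members at 0.02 over genes with whole reads, and all members, otherwise at 0.02, at -0.0014 with a minimum of 5 RPKM or without Cox7b2 and Cox8c, and -0.02 without members sharing 90% or more. Without Cox7b2 and Cox8c, 1 member was 2-fold higher. Among all genes, a pseudocount of 0.1 RPKM gave 723 genes at least 2-fold higher and 727 lower. A pseudocount of 5 RPKM gave 101 and 114, and at 1.5-fold 523 and 518; it left 0 members 2-fold higher and 0 lower. A minimum of 5 RPKM gave 209 genes 2-fold higher, and 780 higher and 903 lower at 1.5-fold. Rescaling without mitochondrial genes gave 586 and 585 at 2-fold. With subunits only, 0 members were 2-fold lower and 2 were 1.5-fold lower, since the assembly factors were left out. The mitochondrial share of summed RPKM was 7.74% in T136A after quantile normalization. In WT and T136A it was 6.94% and 8.08% without chromosome 14, and 7.94% and 9.15% over genes with whole reads in both libraries. It was 3.16% and 4.35% without members sharing 10% or more of their sequence, 6.64% and 7.68% without those sharing 90% or more, and 3.62% and 4.86% without mt-Co1. The settings by shared sequence, without mt-Co1, by whole reads and without Cox7b2 and Cox8c, 5 in all, were chosen after seeing the data. In each of these paired values T136A was the higher. Apart from the values that follow from fewer genes or members, the cause was not tested. Of 106 genes run under 7 settings each, 7 values crossed the 1.5-fold limit: Cox4i2, Cox8c, Ndufaf5 and mt-Nd3 with a pseudocount of 5 RPKM, Cox6a2 with 0.1 RPKM and with rescaling, and Uqcrh, which reached a log2 ratio of 0.59 with median scaling. Scalings put the median of all genes between -0.03 and 0.01.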
